A study of Mus musculus with 6 samples.

Results

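The gene *Trp53*, which encodes the transcription factor p53, and 9 of its well-known target genes were followed in mouse gastruloids after knockdown (KD) of *T-UCstem1*, a long non-coding RNA that carries an ultraconserved element. The 10 genes were *Trp53*, *Mdm2*, *Cdkn1a*, *Ccng1*, *Bax*, *Bbc3*, *Pmaip1*, *Trp53inp1*, *Zmat3* and *Sesn2*. They were chosen by symbol and not by a rule on a measured value, with earlier results of these data known. All 10 were found among the 35565 gene identifiers of the count table, and all 10 passed the filter on low counts. Gastruloids are aggregates of embryonic stem cells (ESCs) that break symmetry and elongate in culture. Bulk RNA sequencing covered gastruloids at day 5, in 3 Control (NT) libraries and 3 KD-1 libraries. Both groups came from the mouse ESC line TBV2 129/SvP, and both received 3 µM of the GSK3 inhibitor CHIR99021, an activator of WNT signalling. The Control (NT) cells carry a non-targeting construct per the study's methods, while the sample labels give their genotype as WT, and KD-1 is 1 of the study's knockdown clones. The silencing of *T-UCstem1* and any other difference between these lines cannot be told apart in this comparison, and the level of *T-UCstem1* was not analysed here. The labels number the samples of a group and do not name separate cultures, so that p-values measure the spread between these libraries.

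p53 is a sequence-specific transcription factor that is held at a low level by MDM2, a ubiquitin ligase encoded by one of its own target genes. When p53 is stabilised by DNA damage or other stress, it activates genes that stop the cell cycle, start apoptosis through the BCL2 family, or adjust metabolism and repair. It is regulated mainly through protein stability and modification, so that the level of *Trp53* RNA is not a measure of p53 activity. Mouse ESCs express p53 at a high level, and p53 is known in these cells for limiting self-renewal and for removing unfit cells at the onset of differentiation.

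p53 binds DNA at a pair of half-sites, each of which holds a C and a G at fixed places. The matches below are shown because p53 is known to recognise its targets through such letters, which are candidates only. Within 5000 bases either side of the start of the canonical transcript (GENCODE vM39, GRCm39), runs of 20 letters were searched for 2 abutting copies of the p53 half-site, with at least 18 of the 20 letters matching and all core letters in place. The half-site is its own reverse complement, so that a single search covers both strands, and matches may overlap. Of the 10 genes, 5 held such a match (*Bax*, *Ccng1*, *Cdkn1a*, *Pmaip1* and *Zmat3*), beside 9.87% of the 21467 protein-coding genes of the table and 15 of 46 other p53 targets. The matches outside *Pmaip1* are given 5′ to 3′ on the strand of the gene, with the core C and G of each half-site in capitals.
Cdkn1a: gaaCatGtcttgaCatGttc
Ccng1, upstream: agaCctGcccgggCaaGcct
Ccng1, intron: acgCaaGcccgggCtaGtct
Zmat3, within the gene: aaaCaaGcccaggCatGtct
Zmat3, upstream: gagCaaGtctgggCttGtta
Bax: gggCagGcccgggCttGtcg

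The *Cdkn1a* match (GRCm39, chr17:29309902-29309921, plus strand) lay 2826 bases upstream of the canonical start, outside the annotated gene, with 19 of 20 letters. The *Ccng1* matches (minus strand) lay 160 bases upstream (chr11:40646289-40646308) and 366 bases downstream of the start in an intron (chr11:40645763-40645782), each with 19 letters. The *Zmat3* match 1418 bases downstream (chr3:32418480-32418499, minus strand) overlapped an exon of an annotated transcript and had all 20 letters, and the other (chr3:32424300-32424319) lay 4402 bases upstream of the canonical start, outside the gene. The *Bax* match (chr7:45115998-45116017, minus strand), 318 bases downstream, overlapped an annotated exon and had 18 letters. With at least 17 letters, 8 of the 10 genes held a match, beside 39.4% of protein-coding genes, and *Trp53inp1* and *Sesn2* held none in this window. These are matches of letters, and binding of p53 was not measured here.

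The libraries held between 20982249 and 85561026 counts in total, and the lowest count of any of the 10 genes in a library was 212 (*Bbc3*). Libraries are named by their depth within the group, since the column names gave the group and no number that matches the sample labels. The Control libraries differed among themselves with gene length. In the middle-depth Control library the median log2 ratio to the other 2 Control libraries was 0.14 over the shortest quartile of genes by transcript length (2187 genes) and -0.19 over the longest (2185 genes), while in the lowest-depth Control library these medians were -0.14 and 0.13. In the KD-1 libraries they lay between -0.03 and 0.03. Results that move with these libraries are given with each of them left out, and the part of length in them was not tested.

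Values are CPM, counts scaled to the library total with TMM factors. Genes passed the test at an adjusted p under 0.05 (edgeR's quasi-likelihood test, Benjamini-Hochberg over 15110 genes), and were called higher or lower where the fold change was also over 1.5 in that direction, which is a threshold of the study. Of the 10 genes, 6 passed the test higher and 2 lower in KD-1, while *Mdm2* and *Sesn2* did not pass. Over all genes tested, 30.9% passed higher and 32.6% lower, 63.5% in all. The fold threshold left 3 genes called higher (*Pmaip1*, *Trp53inp1* and *Ccng1*) and 0 called lower by edgeR, DESeq2 or limma-voom, where 19.7% of all genes tested were called higher and 18.1% lower by edgeR. At an unadjusted p under 0.05 (edgeR), 6 of the 10 were higher and 2 lower, beside 32.6% and 34.5% of all genes tested. Across the 10 genes the log2 fold changes had a median of 0.41, beside -0.01 over all genes tested. The libraries of the groups did not overlap in 7 of the 10 genes, with KD-1 above in 6 and Control above in 1, beside 70.6% of all genes tested, 35.3% with KD-1 above and 35.3% with Control above.

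**Figure D1:**
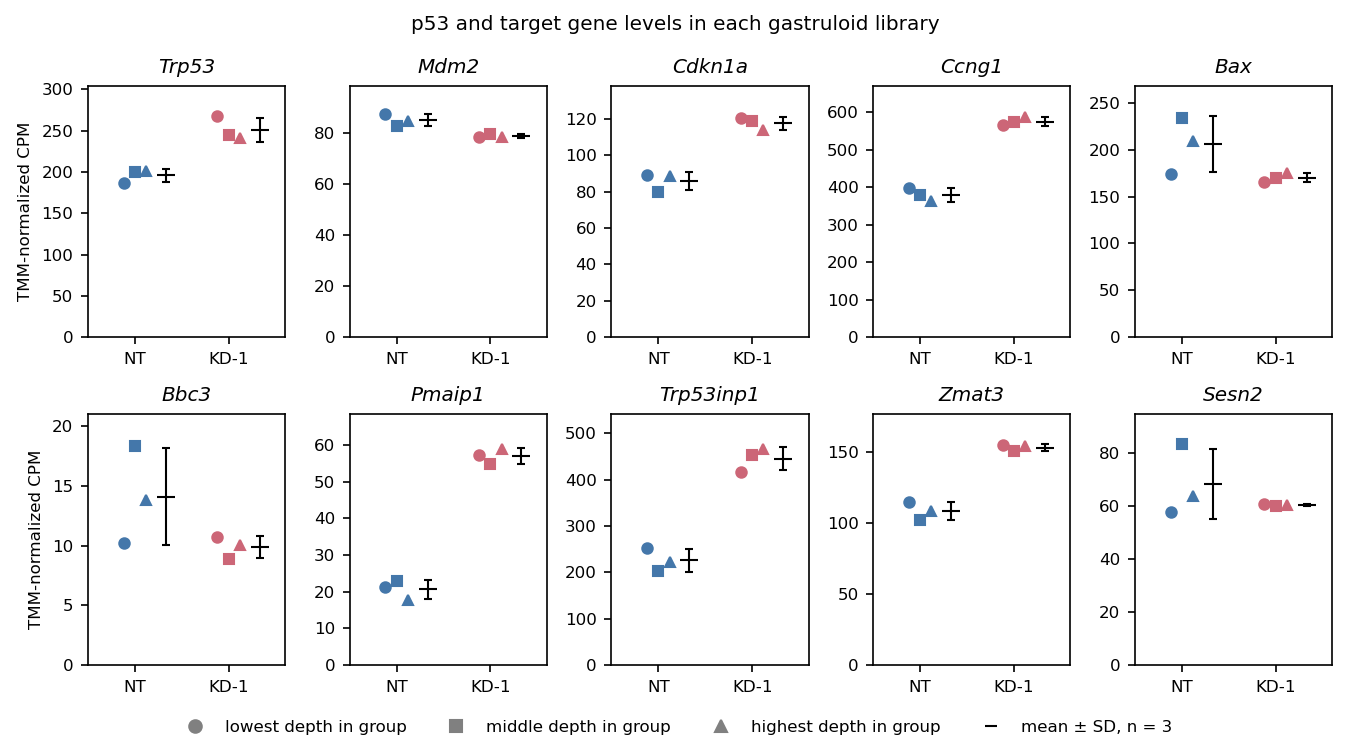
TMM-normalized CPM of the 10 genes (vertical axes from 0) in the 3 Control (NT) libraries (blue) and the 3 KD-1 libraries (red), with marker shape for depth within the group and the mean ± SD (n = 3) in black. *Pmaip1*, *Trp53inp1*, *Ccng1*, *Zmat3*, *Cdkn1a* and *Trp53* lie higher in every KD-1 library, whereas *Bax*, *Bbc3* and *Sesn2* overlap and are most spread in Control (NT).

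*Trp53* (ENSMUSG00000059552, GRCm39 chromosome 11, from 69469669 to 69482701, plus strand) had 187, 200 and 201 CPM in the Control libraries of lowest, middle and highest depth and 268, 245 and 241 CPM in the KD-1 libraries in the same order. Every KD-1 library lay above every Control library. The mean rose from 196 ± 7.95 to 251 ± 14.5 CPM (mean ± SD of 3 libraries each), 1.28-fold (log2 fold change 0.36, standard error (SE) 0.06, with an adjusted p of 0.0011, quasi-likelihood test of edgeR). *Trp53* passed the test without reaching 1.5-fold. It overlaps *Wrap53* on the opposite strand, and whether the counting used strand is not stated. *Wrap53* itself had at most 1611 counts in a library and did not pass the test (log2 fold change -0.16, adjusted p = 0.24, edgeR).

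*Mdm2* (ENSMUSG00000020184, chromosome 10, from 117524780 to 117546730) encodes the ubiquitin ligase that marks p53 for degradation, and it is itself transcribed from a p53-responsive promoter. Its levels were 87.5, 82.9 and 84.7 CPM in the Control libraries and 78.6, 79.8 and 78.7 CPM in KD-1. The KD-1 values all lay slightly below those of the Control. The difference was -0.11 on the log2 scale (95% interval -0.22 to 0.01, adjusted p = 0.10, edgeR), which did not pass the test and places the KD-1 level between 0.856 and 1.01 of the Control. Without the middle-depth Control library the adjusted p was 0.026 (edgeR) at a log2 fold change of -0.13.

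Among the genes of the cell cycle, *Cdkn1a* (ENSMUSG00000023067, chromosome 17, from 29309936 to 29319701), which encodes the CDK inhibitor p21, had 88.8, 79.9 and 88.6 CPM in the Control libraries and 120, 119 and 114 CPM in KD-1. The groups did not overlap. The mean rose from 85.8 ± 5.13 to 118 ± 3.54 CPM (mean ± SD of 3 libraries each), 1.37-fold (log2 fold change 0.46, SE 0.06, adjusted p = 2.6e-04, edgeR). *Ccng1* (ENSMUSG00000020326, chromosome 11, from 40639377 to 40646148) encodes cyclin G1, which recruits a phosphatase that acts on MDM2. It had 399, 379 and 363 CPM in the Control libraries and 565, 574 and 588 CPM in KD-1, again without overlap. The mean rose 1.51-fold (log2 fold change 0.60, SE 0.06, adjusted p = 3.1e-05, edgeR), just past the fold threshold. Without the highest-depth Control library the log2 fold change was 0.56, which still passed the test and fell short of 1.5-fold. *Ccng1* overlaps *Nudcd2* on the opposite strand.

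The genes of apoptosis went both ways. *Pmaip1* (ENSMUSG00000024521, chromosome 18, from 66591604 to 66598636) encodes NOXA, a BH3-only protein that binds and neutralises MCL1. It had 21.4, 22.8 and 17.7 CPM in the Control libraries and 57.3, 54.8 and 59.0 CPM in KD-1. The lowest KD-1 library was thus more than 2 times the highest Control library. The mean rose from 20.6 ± 2.63 to 57.1 ± 2.11 CPM (mean ± SD of 3 libraries each), 2.78-fold (95% interval 2.38 to 3.25, log2 fold change 1.48, adjusted p = 3.9e-06, edgeR), the largest change of the 10 genes.

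*Bbc3* (ENSMUSG00000002083, chromosome 7, from 16042318 to 16052130) encodes PUMA, a BH3-only protein that acts on all anti-apoptotic members of the BCL2 family. It had 10.2, 18.3 and 13.8 CPM in the Control libraries and 10.7, 8.85 and 10.02 CPM in KD-1. The lowest-depth Control library lay within the KD-1 range, and the other two lay above it. The mean fell from 14.1 ± 4.06 to 9.86 ± 0.941 CPM (log2 fold change -0.53, SE 0.19, adjusted p = 0.034, edgeR), which passed the test without reaching the fold threshold. The log2 fold change was -0.70 without the lowest-depth Control library, where *Bbc3* was called lower, and -0.32 without the middle-depth one.

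*Bax* (ENSMUSG00000003873, chromosome 7, from 45111015 to 45116325) encodes the effector that permeabilises the outer mitochondrial membrane. It had 174, 234 and 209 CPM in the Control libraries and 166, 170 and 175 CPM in KD-1, and the groups overlapped by the lowest-depth Control library. The mean fell from 206 ± 30.0 to 170 ± 4.59 CPM (log2 fold change -0.28, SE 0.10, adjusted p = 0.035, edgeR). By longest transcript, *Bax* (1100 bases), *Bbc3* (2684 bases), *Mdm2* (3386 bases) and *Pmaip1* (2732 bases), which rose, belong to the shortest quartile. Without the middle-depth Control library the log2 fold change of *Bax* was -0.18 (adjusted p = 0.036, edgeR), and without the lowest-depth one it was -0.38. *Bax* and *Bbc3* each missed an adjusted p of 0.05 when the highest-depth Control library or any KD-1 library was left out, with adjusted p up to 0.12 in both (edgeR).

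Of the genes with other roles in the stress response, *Trp53inp1* (ENSMUSG00000028211, chromosome 4, from 11156412 to 11175230) encodes a nuclear protein that promotes the pro-apoptotic phosphorylation of p53 and also takes part in autophagy. It had 252, 203 and 223 CPM in the Control libraries and 417, 453 and 466 CPM in KD-1, with a wide gap between the groups. The mean rose from 226 ± 24.7 to 445 ± 25.4 CPM (mean ± SD of 3 libraries each), 1.97-fold (95% interval 1.72 to 2.26, log2 fold change 0.98, adjusted p = 2.0e-05, edgeR). *Zmat3* (ENSMUSG00000027663, chromosome 3, from 32388941 to 32420163) encodes an RNA-binding zinc finger protein that regulates splicing. It had 115, 102 and 109 CPM in the Control libraries and 155, 151 and 154 CPM in KD-1, and rose 1.41-fold (log2 fold change 0.50, SE 0.06, adjusted p = 1.2e-04, edgeR) without overlap and below the fold threshold.

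*Sesn2* (ENSMUSG00000028893, chromosome 4, from 132219335 to 132237815) encodes sestrin 2, a leucine sensor that restrains mTORC1. It had 57.7, 83.1 and 63.6 CPM in the Control libraries and 60.7, 60.0 and 60.4 CPM in KD-1. The KD-1 libraries lay close together within the Control range, and the middle-depth Control library stood above the others. The log2 fold change of -0.18 did not pass the test (95% interval -0.45 to 0.10, adjusted p = 0.23, edgeR). It was -0.01 without the middle-depth Control library and -0.28 (adjusted p = 0.048, edgeR) without that of lowest depth.

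**Figure D2:**
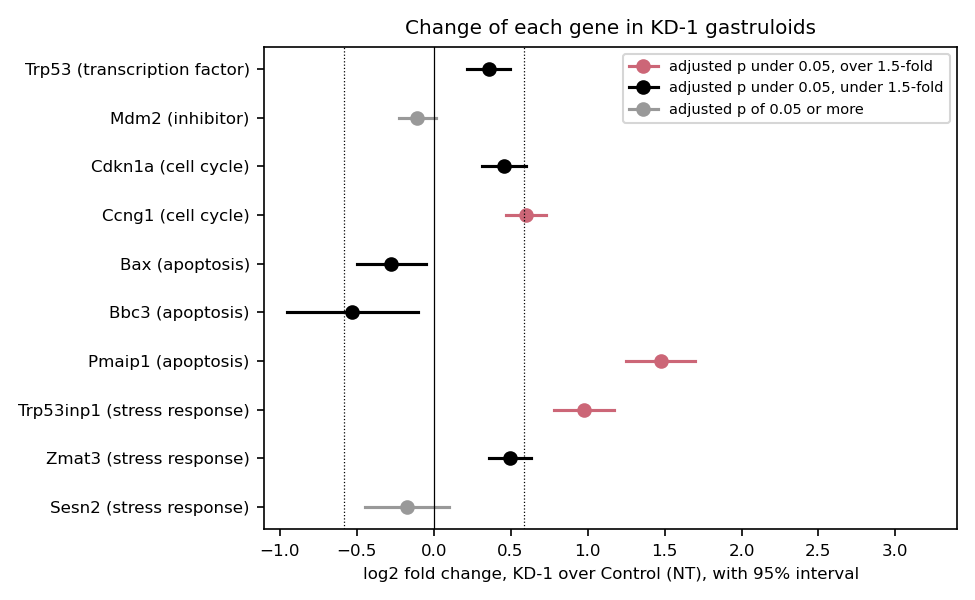
Log2 fold change of KD-1 over Control (NT) with its 95% interval for the 10 genes, grouped by role, with dotted lines at 1.5-fold in either direction. *Pmaip1* and *Trp53inp1* have intervals that lie wholly past the threshold, those of *Ccng1*, *Cdkn1a* and *Zmat3* span it, and *Bax* and *Bbc3* lie below 0.

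**Figure D3:**
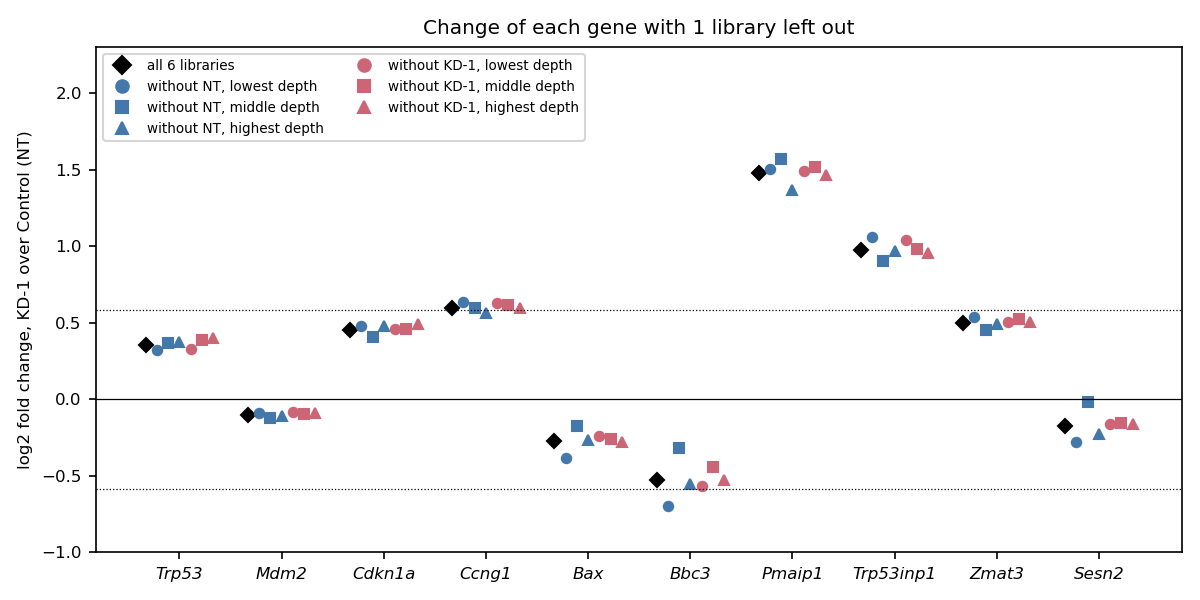
Log2 fold change of the 10 genes with all 6 libraries (black) and with each Control (NT) library (blue) or KD-1 library (red) left out, with the 1.5-fold threshold dotted. *Bbc3* (-0.70 to -0.32) and *Sesn2* (-0.28 to -0.01) move most, and the ends of both ranges come from leaving out the lowest-depth and the middle-depth Control library.

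All 10 genes kept their direction in the 14 settings compared, which were other tests, normalizations and filters and each library left out. *Trp53*, *Cdkn1a*, *Ccng1*, *Pmaip1*, *Trp53inp1* and *Zmat3* passed an adjusted p of 0.05 in all 14, *Bbc3* in 10 and *Bax* in 8. None of the 10 genes lies on chromosome 1, where the tested genes of this comparison had a median log2 fold change of 0.49, beside -0.05 on the other autosomes.

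Levels of different genes were compared per length, as CPM per kb of merged exons. In Control (NT) gastruloids *Bax* was highest (111 ± 16.2 CPM per kb, SD, n = 3), followed by *Ccng1* (86.4), *Trp53inp1* (30.8), *Trp53* (26.6), *Sesn2* (15.0), *Cdkn1a* (14.2), *Mdm2* (11.03), *Zmat3* (9.50), *Pmaip1* (7.54) and *Bbc3* (2.94). *Sesn2* and *Cdkn1a* were the neighbours in this order whose libraries overlapped. In KD-1 gastruloids *Ccng1* stood first at 131 ± 2.55 CPM per kb, above *Bax* at 91.6, and *Pmaip1* (20.9) stood just above *Cdkn1a* (19.5). *Zmat3* (13.4) and *Sesn2* (13.3) overlapped there. Within a library, the level of *Pmaip1* per length was 2.70 ± 0.837 times that of *Bbc3* in the Control and 10.2 ± 0.755 times in KD-1. The order and the ratio of *Pmaip1* to *Bbc3* depend on the length used. Per kb of the longest transcript, *Bbc3* had 5.26 CPM in the Control and 3.67 in KD-1. *Pmaip1* kept 7.54 and 20.9 there, so that its ratio to *Bbc3* was smaller in both groups. Per kb of the longest transcript, *Pmaip1* (20.9) lay below *Cdkn1a* (28.7) and *Mdm2* (23.3) in KD-1, and *Mdm2* stood above *Cdkn1a* in the Control.

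**Figure D4:**
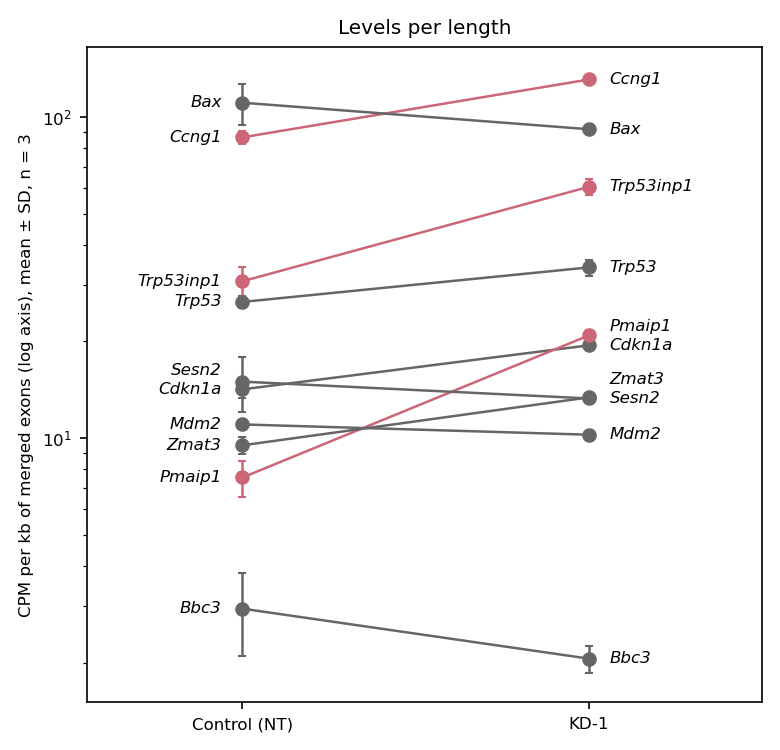
Mean CPM per kb of merged exons (log axis, error bars SD, n = 3) of the 10 genes in the Control and KD-1 gastruloids, with called genes in red. *Pmaip1* moves from 7.54 to 20.9 CPM per kb and passes *Zmat3*, *Mdm2*, *Sesn2* and *Cdkn1a*, and *Bbc3* is lowest in both groups.

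The wider set of p53 targets went in both directions as well. Of 47 further target genes listed, 46 were tested, with 10 called higher and 5 called lower in KD-1. In all 32.6% were called, beside 37.7% of all genes tested (19.7% higher and 18.1% lower). The median log2 fold change of the 46 was 0.14. Without the fold threshold, 19 passed the test higher and 10 lower, beside 30.9% and 32.6% of all genes tested. *Tigar*, whose product lowers fructose-2,6-bisphosphate and so glycolysis, rose from 24.6 ± 1.83 to 66.9 ± 3.21 CPM (log2 fold change 1.44, SE 0.08, adjusted p = 1.1e-06, edgeR). *Slc19a2*, a thiamine transporter gene, had a log2 fold change of 1.32, and *Rprm*, which encodes the G2 arrest protein Reprimo, had 1.24. *Slc19a2* lies on chromosome 1, as does *Btg2*, an antiproliferative gene called higher at 0.84. Among the 40 targets tested on other chromosomes, 8 were called higher and 5 lower. The 8 include *Eda2r*, which lies on chromosome X and so outside the autosomes. Beside them, 17.97% of all genes tested on the autosomes other than chromosome 1 were called higher and 18.87% lower.

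The other targets called higher were *Pml* (0.91), *Zfp365* (0.95), *Eda2r* (0.85), *Gadd45a* (0.76), *Rrm2b* (0.75) and the death receptor gene *Fas*. *Fas* had 5, 1 and 6 counts in the Control libraries of lowest, middle and highest depth and 33, 53 and 102 counts in KD-1; its fitted log2 fold change of 3.22 rests on these few Control counts. The targets called lower were *Cd82* (-0.81), *Pidd1* (-0.77), *Plk2* (-0.74), *Fdxr* (-0.72) and *Sesn1* (-0.60). *Pidd1* encodes the platform of the caspase-2-activating PIDDosome and *Plk2* a polo-like kinase. *Cd82* lost its call in 4 of the 6 settings with a library left out. *Sesn1*, a paralog of *Sesn2*, kept its call in 7 of 14 settings and lost it in 3 with a library left out, with DESeq2, with RLE normalization, with library size alone and with at least 10 counts required in every library.

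**Figure D5:**
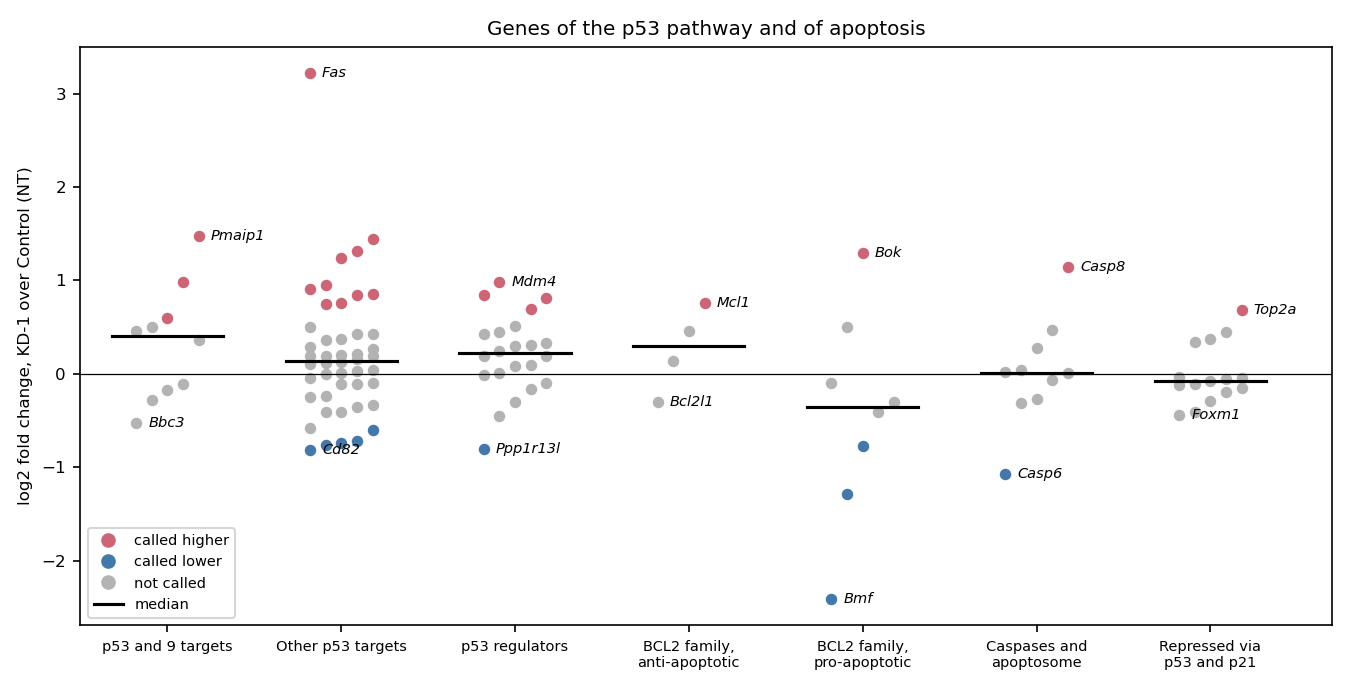
Log2 fold change of KD-1 over Control (NT) for the tested genes of each list, with called genes in red (higher) or blue (lower), others grey, the median as a bar, and the lowest and highest gene of each list named. The p53 targets spread on both sides of 0, and among the pro-apoptotic BCL2 family genes *Bmf* lies lowest at -2.41.

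Of 22 genes that regulate p53 or bind to it, 4 were called higher and 1 lower (22.7% called, beside 37.7% of all genes tested). *Mdm4*, the paralog of *Mdm2* whose product blocks transactivation by p53, had 369, 251 and 341 CPM in the Control libraries and 612, 638 and 642 CPM in KD-1. Its log2 fold change was 0.98 (SE 0.13, adjusted p = 1.9e-04, edgeR) with all KD-1 libraries above the Control, and it lies on chromosome 1. The ratio of *Mdm4* to *Mdm2* per kb of merged exons was 1.42 ± 0.243 in the Control and 3.02 ± 0.0711 in KD-1 (SD, n = 3 each). Its size too depends on the length used. The checkpoint kinase gene *Chek2* had a log2 fold change of 0.84 and the deacetylase gene *Sirt1* one of 0.81. *Atm*, a long gene, was called higher at 0.69, which dropped to 0.44 without the middle-depth Control library and then was not called. *Ppp1r13l*, which encodes the p53 inhibitor iASPP, was called lower at -0.80.

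Paralogs of the 10 genes went in both directions. Of the 11 genes on this list, which includes the other p53 family genes, 6 were called higher and 3 lower (81.8% called, beside 37.7% of all genes tested). *Mdm4* (higher, on chromosome 1) and *Sesn1* (lower) are among them and were also counted in the lists above. *Ccng2* fell from 44.1 ± 0.730 to 23.6 ± 1.23 CPM (SD, n = 3 each, log2 fold change -0.90, SE 0.07, adjusted p = 7.5e-06, edgeR), where *Ccng1* rose. *Cdkn1b* (p27) was called higher at 0.68 and *Cdkn1c* (p57) lower at -0.72, and the latter was not called without the middle-depth Control library (-0.44). *Zmat4*, at 2.44 CPM in the Control and 11.4 in KD-1, rose by 2.23 on the log2 scale. *Trp53inp2* was called higher at 0.83, as was *Trp53inp1*. *Zmat1* (log2 fold change 0.35, adjusted p = 0.33, edgeR) did not pass the test. *Sesn3* did not pass either (log2 fold change -0.02, adjusted p = 0.92, edgeR). Both p53 family genes were low. *Trp63* had 7, 0 and 3 counts in the Control and 20, 17 and 45 in KD-1, and it kept its call in 7 of 13 settings, losing it with DESeq2, with no filter on low counts and in 4 of the 6 with a library left out. *Trp73* was called higher at 0.73, and not in 3 of the 6 settings with a library left out.

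In the BCL2 family, whose balance decides the response to PUMA and NOXA, 5 anti-apoptotic genes were listed and 4 tested. *Mcl1*, which encodes the binding partner of NOXA, was called higher, from 156 ± 8.96 to 264 ± 8.77 CPM (SD, n = 3 each, log2 fold change 0.76, SE 0.06, adjusted p = 1.2e-05, edgeR). The level of *Mcl1* per length was 5.96 ± 0.446 times that of *Pmaip1* in the Control and 3.63 ± 0.200 times in KD-1. *Bcl2*, on chromosome 1, had a log2 fold change of 0.46 and *Bcl2l1* one of -0.30, both below the fold threshold. Of 8 further pro-apoptotic genes, 1 was called higher and 3 lower (37.7% of all genes tested were called, 19.7% higher and 18.1% lower), with a median log2 fold change of -0.36. *Bmf*, a BH3-only gene, fell from 63.1 ± 4.77 to 11.9 ± 1.27 CPM (log2 fold change -2.41, SE 0.10, adjusted p = 2.5e-07, edgeR). *Bad* (-1.28) and *Bak1* (-0.77), the effector paralog of *Bax*, were called lower too, and *Bok*, on chromosome 1, was called higher at 1.29 and low in level, with at most 6.06 CPM in a library.

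Of 10 genes of the caspases and the apoptosome, *Casp6* was called lower (-1.07) and *Casp8*, on chromosome 1, was called higher (1.15) from a mean of 0.679 CPM. These 2 of 10 stand beside 37.7% called over all genes tested. The call of *Casp8* held in 1 of the 6 settings with a library left out. Of 15 cell cycle genes known to be repressed through p53 and p21, 1 was called, *Top2a*, higher at 0.68 (6.67% called, beside 37.7% of all genes tested). Without the fold threshold 4 of them passed the test higher and 3 lower, where 30.9% and 32.6% of all genes tested did, and their median log2 fold change was -0.07.

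Cell type markers moved in the same comparison, in which 19.7% of all genes tested were called higher and 18.1% lower. Of 9 pluripotency markers 7 were called higher, and *Dppa3* and *Tbx3* were not called. The summed level of the 9 lay between 703 and 752 CPM in the Control libraries and between 2039 and 2105 CPM in KD-1. *Pou5f1* (Oct4), which the paper uses as a general pluripotency marker, was the largest part (means of 269 and 660 CPM). Of 10 markers of paraxial mesoderm and somites, 9 were tested and all 9 called lower. The sums over the 10 lay between 521 and 602 CPM in the Control libraries and between 45.5 and 46.0 CPM in KD-1. *Msgn1* was not tested. It had 0, 0 and 3 counts in the Control libraries (lowest, middle and highest depth) and 0 in every KD-1 library. Of 8 caudal and neuromesodermal markers 1 was called higher and 3 lower, with sums between 189 and 211 CPM and between 199 and 212 CPM. *Hoxb9*, which was not called, made up most of these sums (means of 113 and 133 CPM). *Nkx1-2* was called higher (0.93, means of 17.6 and 33.3 CPM), and *Cdx1* (-4.22), *Cdx2* (-1.25) and *Hoxd9* (-1.09) were called lower. *T* did not pass the test (-0.31). Of 6 endothelial and blood markers 3 were tested, with *Pecam1* called higher and *Kdr* and *Hbb-bh1* called lower. The 6 summed to between 16.7 and 17.8 CPM in the Control and between 29.7 and 31.9 CPM in KD-1. Most of this came from *Pecam1* (14.5 and 29.4 CPM on average). *Gata1* and *Hbb-bh1* were at 0 in every KD-1 library, and both were low in the Control. *Gata1*, which was not tested, had 0, 0 and 2 counts in the Control libraries, and *Hbb-bh1* had at most 0.505 CPM. Feeder fibroblast markers summed to at most 3.59 CPM, with *Postn* and *Lum* at 0 in every KD-1 library. In bulk libraries a change in the share of a cell type and a change in RNA per cell cannot be told apart, and the part of cell composition in the changes of the p53 genes was not tested.

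Among 8739 protein-coding genes with a mean of at least 10 CPM, the genes closest to *Trp53* in their centred log2 profile over the 6 libraries were *Ulk1*, *Gars1* and *Pnp*, at root mean square differences of 0.02, 0.03 and 0.03 on the log2 scale. *Trappc6b*, *Orc5* and *Mat2a* were closest to *Cdkn1a*, at 0.02, 0.03 and 0.03.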

How the data were processed

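Bulk RNA sequencing of 3 Control (NT) and 3 KD-1 gastruloid libraries at day 5 was analysed. The study prepared TruSeq libraries, sequenced paired-end reads and quantified them with Salmon (version 1.1) against a Gencode annotation (a release number is named without the M that marks mouse releases, so that the mouse release and build remain unclear). The authors deposited estimated counts (expected counts) per Ensembl gene as whole numbers. They are not normalized, and neither the summing of transcripts to genes nor the use of strand is stated, and Salmon divides reads between similar sequences.

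Names, positions and lengths came from GENCODE vM39 (GRCm39), which matched 35222 of 35565 identifiers. Counts were tested with edgeR (version 4.0.16, R version 4.3.3): filterByExpr, TMM, glmQLFit with robust estimation and glmQLFTest, with group as the sole factor and p adjusted by Benjamini-Hochberg across 15110 genes. The biological coefficient of variation was 10.6%. Intervals of fold changes are 95% intervals from the fit. The alternatives were DESeq2 (version 1.42.0), limma-voom (limma version 3.58.1), RLE, upper-quartile or no composition normalization, other filters and fold thresholds, no robust estimation, and each library left out. In simulated counts of this comparison, edgeR recovered 200 of 200 genes set to change by 1.5 on the log2 scale, and called 5 of 14913 unchanged ones.

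Every pair of libraries of a group differed by more than sampling noise. The chi-square per degree of freedom lay between 15.3 and 36.5 for Control pairs and between 4.85 and 11.1 for KD-1 pairs. The fit estimates a single spread per gene for both groups. Total counts from 20982249 to 85561026 put the limit of a count of 0, taken as 3 counts, at 0.143 CPM or less. The smallest two-sided p of an exact permutation test of 3 against 3 libraries is 0.1. The 10 genes and the lists were chosen with earlier results of these data known. The text names the 10 genes, the 3 most changed called genes of each list with a mean of at least 1 CPM, the paralogs *Mdm4*, *Ccng2*, *Sesn1*, *Sesn3*, *Trp63*, *Trp73*, *Cdkn1b* and *Cdkn1c*, and the 3 genes most like *Trp53* and *Cdkn1a*. Other genes were named after their values were seen. Of the cell type lists, the genes named by this rule were *Nanog* (log2 fold change 1.67), *Esrrb* (1.87), *Tfcp2l1* (1.68), *Meox1* (-9.77), *Foxc1* (-7.13), *Foxc2* (-8.49), *Cdx1* (-4.22), *Cdx2* (-1.25), *Hoxd9* (-1.09), *Pecam1* (1.02) and *Kdr* (-0.83).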

Additional observations from a re-analysis of the deposited data

How the results depend on the processing

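The 3 genes called higher became 6 with no fold change threshold and 1 with an absolute log2 fold change over 1, and lay between 2 and 3 with a library left out (2 without the highest-depth Control library, where *Ccng1* missed 1.5-fold; glmTreat against 1.5-fold also gave 2). The 0 genes called lower became 2 (*Bax* and *Bbc3*) with no fold change threshold and lay between 0 and 1 (*Bbc3*, without the lowest-depth Control library) with a library left out. For the other p53 targets, the 10 called higher became 19 and 4, and the 5 called lower became 10 and 0, under these thresholds, and glmTreat against a 1.5-fold change gave 2 lower. With no fold change threshold, 30.9% of all genes tested passed higher and 32.6% lower. These shares were not counted for an absolute log2 fold change over 1, for glmTreat or with a library left out. With a library left out 10 stayed higher in number, and between 2 (without the highest-depth KD-1 library) and 5 were lower. A p53 site match was held by 8 genes with 17 letters, 3 with 19, and 4 within 2000 bases. Every setting listed kept the direction of the 10 genes. No paired analysis was possible because the column names carry no replicate numbers that match the sample labels.

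Leaving out a library leaves 1 group with 2 libraries, and the spread is then estimated over the 5 that remain. The 10 genes had at least 212 counts in every library, so that depth limits *Fas*, *Trp63* and *Casp8* more than them.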
